A study of Homo sapiens with 4 samples.

Results

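A set of 47 genes, of 18417 genes measured, differed between the replicate 2 and the replicate 1 arrays of a p53 knockdown experiment by more than 1.5-fold. The genes were chosen by the measured values themselves: the mean of the replicate 2 arrays minus the mean of the replicate 1 arrays had to exceed 1.5-fold in either direction. That difference is therefore described here without a test. Of the 47 genes, 33 were lower and 14 were higher on the replicate 2 arrays, which is 0.255% of all genes. The same genes were then compared between the knockdown and its control, a comparison that the choice did not use.

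Total RNA of MDA-MB-468, a breast cancer cell line whose own p53 carries the R273H change, was measured on 4 whole-transcript arrays (Affymetrix Human Gene 1.0 ST). On 2 arrays the cells had received p53si-1, a lentiviral shRNA against p53, and on 2 arrays a non-targeting lentiviral shRNA (NS), with replicate numbers 1 and 2 in each group. The time after transduction is 48 h in the methods of the study and 72 h in its results text, and 1 shRNA sequence against p53 was used on the arrays. A figure legend calls the experiments independent, and no source used here says that a replicate number marks a shared culture, transduction, extraction or scan. Values are log2 signals per transcript cluster, the array's unit for a gene. They ran from 1.75 to 14.3 and had similar medians on all arrays, from 6.56 to 6.61 over the genes. All 9 measured markers of breast epithelium lay above the median gene, between 7.16 for KRT14 and 12.4 for KRT8. Of the 14 measured markers of leukocytes, endothelium and fibroblasts, 3 did so (CD14, KDR and COL1A1, with the highest at 9.78). The p53 transcript is not analysed here. No marker of either kind passed 1.5-fold by replicate number or with p53si-1, with median replicate differences of -0.14 for epithelium, 0.01 for leukocytes, 0.12 for endothelium and 0.00 for fibroblasts. Only the spread between these 4 arrays enters the p-values, and permuting so few arrays cannot yield a two-sided p smaller than 0.333.

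As background, inflammatory chemokines such as CCL2 and CXCL8 are classical targets of the transcription factor NF-kB, acute-phase and antimicrobial proteins are released by epithelia under inflammatory stimuli, and semaphorins are guidance cues read by plexin receptors. In RNA from a whole culture, fewer cells of a kind and less RNA per cell cannot be told apart.

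The 33 genes with lower signal on the replicate 2 arrays held 8 that encode secreted proteins of the matrix, of defence or of the acute phase. The secreted proteins among the 14 genes with higher signal were the chemokines CCL2 and CXCL8 and the semaphorin SEMA3C. The semaphorin SEMA3E, secreted as well, was among the lower genes. Both semaphorins are counted below with the membrane and guidance genes. The role groups were drawn up after the values had been seen and carry no test. MMP7, or matrilysin, is a secreted metalloproteinase that cleaves matrix proteins. Its log2 signal was 9.28 (p53si-1) and 8.83 (NS) on the replicate 2 arrays, against 9.95 (p53si-1) and 9.94 (NS) on the replicate 1 arrays. Both replicate 2 arrays lay below both replicate 1 arrays, and the mean difference was -0.89. LBP, which binds bacterial lipopolysaccharide, gave 6.29 (p53si-1) and 7.16 (NS) on the replicate 2 arrays, against 7.17 (p53si-1) and 7.92 (NS) on the replicate 1 arrays. The replicate pairs of LBP barely missed overlapping, with NS replicate 2 directly below p53si-1 replicate 1. DEFB1, the antimicrobial peptide beta-defensin 1, gave 7.01 (p53si-1) and 6.86 (NS) on the replicate 2 arrays, against 7.69 (p53si-1) and 7.79 (NS) on the replicate 1 arrays. CP, the copper-carrying acute-phase protein ceruloplasmin, gave 8.23 (p53si-1) and 8.07 (NS), against 9.13 (p53si-1) and 8.84 (NS) on the replicate 1 arrays. MSMB, a secreted protein best known from prostate fluid, was dimmer, at 5.18 (p53si-1) and 5.16 (NS), against 5.89 (p53si-1) and 6.14 (NS) on the replicate 1 arrays. In DEFB1, CP and MSMB the difference was present in both groups, from -0.68 to -0.89 between the p53si-1 arrays and -0.77 to -0.98 between the NS arrays. The protease inhibitor SERPINA3 (alpha-1-antichymotrypsin), the serine protease PRSS23 and the enamel matrix protein ENAM completed the group, with differences from -0.60 to -0.63. ENAM lay close to the dim end of the array, at a mean log2 signal of 3.60.

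Other members of the MMP gene cluster did not share the difference of MMP7. MMP1, MMP3, MMP8, MMP10, MMP12, MMP13 and MMP20, looked up after the values had been seen, had mean log2 signals from 3.02 to 3.92 and replicate differences from -0.11 to 0.08. These neighbours were close to the dim end of the array, and MMP7 was the bright gene of the cluster.

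Enzymes on the cell surface and epidermal proteins were also lower on the replicate 2 arrays. NT5E (CD73), which turns AMP into adenosine outside the cell, gave 8.76 (p53si-1) and 8.58 (NS) on the replicate 2 arrays, against 9.60 (p53si-1) and 9.47 (NS) on the replicate 1 arrays. Its difference was -0.85 between the p53si-1 arrays and -0.89 between the NS arrays, so that both groups moved by nearly the same amount. ANPEP (CD13), a membrane aminopeptidase, differed by -0.80 between the p53si-1 arrays and -0.76 between the NS arrays. CASP14, a caspase of cornifying keratinocytes, and SERPINB7, a serpin of the epidermis, had high mean signals of 11.1 and 9.05 and mean differences of -0.70 and -0.68. Of 27 measured genes in a list of keratinocyte differentiation, 0 passed 1.5-fold by replicate number, 12 were above 0 and 15 below, and the list's median difference was -0.03, against -0.01 over all genes. Of 48 keratin genes, 0 passed, 14 were above 0 and 34 below, and the median was -0.07.

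Among 9 membrane and guidance genes, 5 were lower and 4 were higher on the replicate 2 arrays. IGSF9B, an adhesion molecule of the immunoglobulin superfamily, had the largest difference among the lower genes. It gave 4.81 (p53si-1) and 4.94 (NS) on the replicate 2 arrays, against 5.63 (p53si-1) and 5.98 (NS) on the replicate 1 arrays. A second cluster of IGSF9B, at nearly the same mean signal, ran the other way with a difference of 0.29, so the lower signal applies to 1 of its 2 clusters. SEMA3E and SEMA3C are secreted class 3 semaphorins. They lie on chromosome 7 with 3 protein-coding genes between them in the RefSeq annotation, and they differed in opposite directions. SEMA3E gave 5.96 (p53si-1) and 6.31 (NS) on the replicate 2 arrays, against 6.86 (p53si-1) and 7.02 (NS) on the replicate 1 arrays. SEMA3C gave 8.39 (p53si-1) and 8.46 (NS) on the replicate 2 arrays, against 7.68 (p53si-1) and 7.57 (NS) on the replicate 1 arrays. The replicate pairs of both genes were apart in both groups, while none of the other class 3 semaphorins on the array passed 1.5-fold (SEMA3F at -0.34 and SEMA3A at -0.20 came closest). MALL, a MAL-family protein of membrane microdomains, gave 7.72 (p53si-1) and 8.25 (NS) on the replicate 2 arrays, against 8.46 (p53si-1) and 9.09 (NS) on the replicate 1 arrays. TMEM156, a transmembrane protein, gave 6.18 (p53si-1) and 6.15 (NS), against 6.77 (p53si-1) and 7.15 (NS) on the replicate 1 arrays. LEMD1 was lower by a similar amount in both groups, -0.60 between the p53si-1 arrays and -0.63 between the NS arrays.

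**Figure D1:**
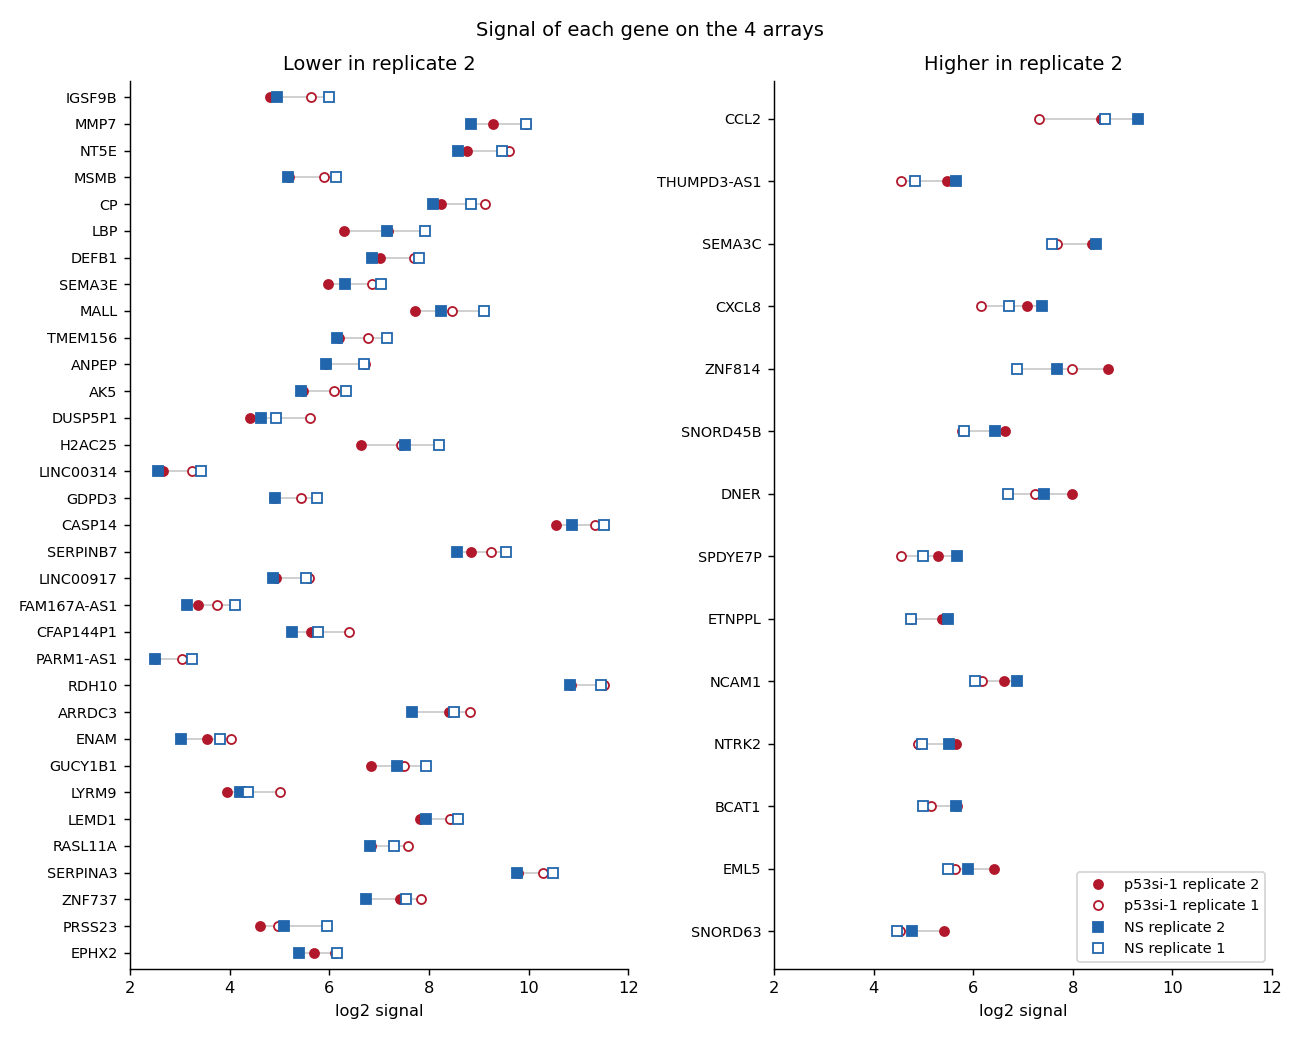
Log2 signal (horizontal axis) of each of the 47 genes on the 4 arrays, with the 33 genes lower on the replicate 2 arrays on the left and the 14 higher ones on the right, each ordered by the size of the difference. Red circles are p53si-1 arrays, blue squares NS arrays, filled symbols replicate 2 and open symbols replicate 1. In 43 of the 47 genes both filled symbols lie on the same side of both open ones, against 6226 of all 18417 genes. The choice of the genes by a large replicate difference favours this.

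The 14 genes with higher signal on the replicate 2 arrays were led by the chemokine CCL2, which attracts monocytes. CCL2 gave 8.56 (p53si-1) and 9.31 (NS) on the replicate 2 arrays, against 7.31 (p53si-1) and 8.65 (NS) on the replicate 1 arrays. Its mean difference of 0.96, or 1.94-fold, was the largest of the 47, and no gene reached 2-fold. The difference was 1.25 between the p53si-1 arrays and 0.66 between the NS arrays, and since CCL2 was also lower with p53si-1, p53si-1 replicate 2 lay just below NS replicate 1. CXCL8 (interleukin-8), which attracts neutrophils, gave 7.08 (p53si-1) and 7.38 (NS) on the replicate 2 arrays, against 6.15 (p53si-1) and 6.72 (NS) on the replicate 1 arrays. Here both replicate 2 arrays lay above both replicate 1 arrays.

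THUMPD3-AS1, a long non-coding RNA, gave 5.47 (p53si-1) and 5.65 (NS) on the replicate 2 arrays, against 4.55 (p53si-1) and 4.82 (NS) on the replicate 1 arrays. The overlapping gene THUMPD3 differed by only -0.06. ZNF814, a zinc finger protein, gave 8.70 (p53si-1) and 7.69 (NS) on the replicate 2 arrays, against 7.98 (p53si-1) and 6.88 (NS) on the replicate 1 arrays. DNER, a transmembrane protein with Notch-like repeats, gave 7.98 (p53si-1) and 7.41 (NS), against 7.24 (p53si-1) and 6.69 (NS) on the replicate 1 arrays. In ZNF814 and DNER the replicate difference and the p53si-1 difference added up, so that p53si-1 replicate 2 was the highest array and NS replicate 1 the lowest. The neural adhesion molecule NCAM1 gave 6.62 (p53si-1) and 6.87 (NS) on the replicate 2 arrays, against 6.17 (p53si-1) and 6.04 (NS) on the replicate 1 arrays. NTRK2, the receptor of the neurotrophin BDNF, had lower signals of 5.64 (p53si-1) and 5.50 (NS), against 4.89 (p53si-1) and 4.98 (NS) on the replicate 1 arrays. NCAM1, NTRK2, SEMA3C and DNER have known roles in the nervous system, as have IGSF9B and SEMA3E, which were lower on the replicate 2 arrays. ETNPPL, an enzyme that degrades phosphoethanolamine, gave 5.37 (p53si-1) and 5.49 (NS), against 4.76 (p53si-1) and 4.75 (NS) on the replicate 1 arrays. The speedy/RINGO-family pseudogene SPDYE7P gave 5.28 (p53si-1) and 5.68 (NS), against 4.56 (p53si-1) and 4.98 (NS) on the replicate 1 arrays. BCAT1, the cytosolic aminotransferase of branched-chain amino acids, and EML5, a protein of a microtubule-binding family, closed the protein-coding genes at 0.60 each.

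SNORD45B and SNORD63 are C/D box small nucleolar RNAs, which guide methylation of ribosomal RNA, and both were higher on the replicate 2 arrays. SNORD45B gave 6.63 (p53si-1) and 6.44 (NS) on the replicate 2 arrays, against 5.78 (p53si-1) and 5.82 (NS) on the replicate 1 arrays. SNORD63 gave 5.42 (p53si-1) and 4.76 (NS), against 4.52 (p53si-1) and 4.48 (NS) on the replicate 1 arrays, a difference of 0.90 between the p53si-1 arrays and 0.28 between the NS arrays. Both lie inside protein-coding genes in the RefSeq annotation, and these did not move to a like extent. RABGGTB, which holds SNORD45B, differed by 0.10, and HSPA9, which holds SNORD63, by 0.02. The related SNORD45C differed by 0.42 and SNORD45A by 0.08. Over all 189 measured small nucleolar RNAs, 2 were past 1.5-fold and both were higher, 120 were above 0, and the median difference was 0.05.

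The remaining genes with lower signal on the replicate 2 arrays served metabolism, signalling, chromatin or no known protein. They included AK5 (an adenylate kinase, -0.77), RDH10 (a retinol dehydrogenase, -0.64), EPHX2 (the soluble epoxide hydrolase, -0.60), GDPD3 (a lysophospholipase D, -0.70) and GUCY1B1 (a subunit of the nitric oxide receptor guanylate cyclase, -0.62). They also held ARRDC3 (an alpha-arrestin, -0.63), RASL11A (a Ras-like GTPase, -0.61) and LYRM9 (a LYR motif protein, -0.62). RDH10 had the highest mean signal of the 47 genes, 11.2, and its difference was nearly the same in both groups, -0.65 between the p53si-1 arrays and -0.63 between the NS arrays. The histone H2AC25 gave 6.63 (p53si-1) and 7.52 (NS) on the replicate 2 arrays, against 7.43 (p53si-1) and 8.20 (NS) on the replicate 1 arrays, and was the only one of 66 measured histone genes past 1.5-fold. The zinc finger gene ZNF737 gave 7.42 (p53si-1) and 6.72 (NS), against 7.83 (p53si-1) and 7.53 (NS) on the replicate 1 arrays. ZNF737 and ZNF814, which differed in opposite directions by replicate number, were the 2 past 1.5-fold of 468 measured zinc finger genes. Genes of such families have close relatives in sequence, and the array cannot always tell these apart. The non-coding RNAs LINC00314, LINC00917, FAM167A-AS1 and PARM1-AS1 and the pseudogenes DUSP5P1 and CFAP144P1 were lower by -0.64 to -0.76. PARM1-AS1 (mean log2 signal 2.82), LINC00314 (2.97) and FAM167A-AS1 (3.59) lay close to the dim end of the array.

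The difference had the same sign in both groups in all 47 genes, against 10695 of all 18417 genes. This follows in large part from the choice, since a mean of 2 differences passes the threshold most easily when both point the same way. Of the 47, 26 passed 1.5-fold within each group, 13 did so only between the NS arrays, and 8 only between the p53si-1 arrays. Over all genes, 105 differed by more than 1.5-fold between the NS arrays and 133 between the p53si-1 arrays. The 26 genes are all those past 1.5-fold in the same direction in both groups, and 1 further gene was past it in opposite directions. The size differed between the groups by less than 0.2 in 20 of the 47 and by more than 0.5 in 7. These 7 were DUSP5P1, LYRM9, SNORD63, CCL2, SERPINB7, FAM167A-AS1 and PRSS23. In DUSP5P1 the difference was -1.20 between the p53si-1 arrays and -0.31 between the NS arrays, and in LYRM9 it was -1.07 between the p53si-1 arrays and -0.16 between the NS arrays. For both, a single array (p53si-1 replicate 1) stood above the other 3.

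**Figure D2:**
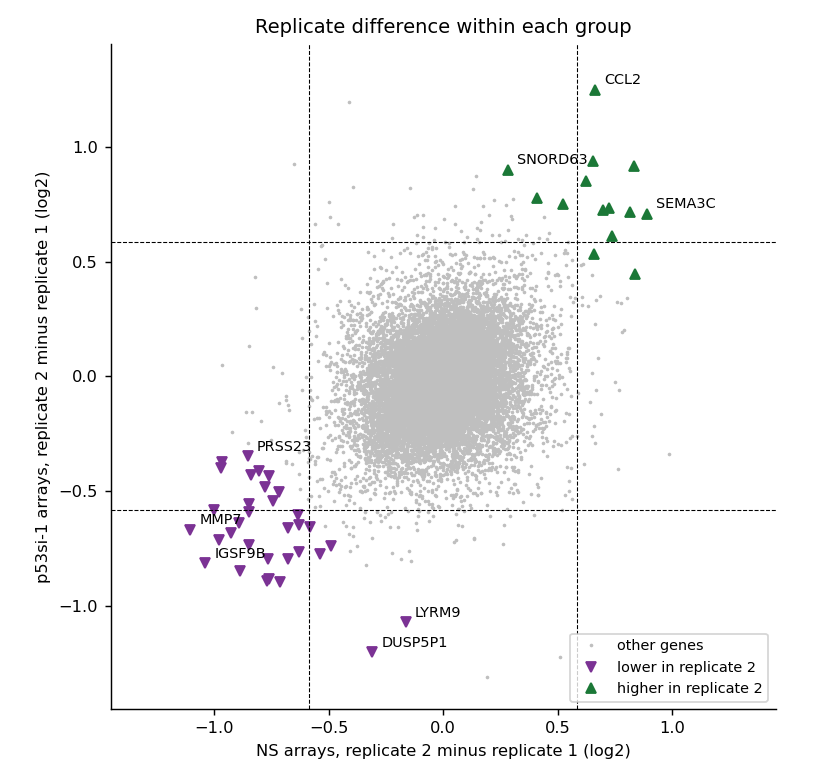
Replicate 2 minus replicate 1 (log2) between the p53si-1 arrays (vertical axis) and between the NS arrays (horizontal axis) for all 18417 genes; triangles are the 47 genes chosen by the mean of both values and dashed lines mark 1.5-fold. The 47 sit in the lower left and upper right, 26 of them beyond the lines in both groups, with LYRM9 and DUSP5P1 far out in the p53si-1 arrays only.

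Just inside the threshold lay SNORD63 at 0.59, EML5 at 0.60, EPHX2 at -0.60, BCAT1 at 0.60 and PRSS23 at -0.60. Just outside lay DLX1 at -0.58, KRT10 at -0.58, FAM209B at -0.58, FKBP6 at -0.58 and SNORD4B at 0.57. The gap across the threshold was smaller than the disagreement between the p53si-1 and the NS arrays within each of these genes.

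In signal, the 47 genes resembled the rest of the array. Their median log2 signal was 6.43, against 6.59 over all genes, and 21 of them (44.7%) lay below 6, against 42.1% of all genes. By kind they held 37 protein-coding genes (78.7%, against 91.8% of all genes), 5 long non-coding RNAs, 3 transcribed pseudogenes and 2 small nucleolar RNAs. They lay on 21 chromosomes. H2AC25 and DUSP5P1, on chromosome 1 with 3 protein-coding genes between them, were both lower on the replicate 2 arrays. The other near pairs differed in opposite directions: SNORD45B and AK5, ENAM and CXCL8, CXCL8 and PARM1-AS1, and SEMA3C and SEMA3E. Of genes represented by several clusters, CFAP144P1 had a second cluster with a difference of -0.01, DUSP5P1 one at -0.21, and LINC00314 had others at -0.22 and -0.17. Clusters without a gene symbol differed far more often. Of 12083 such clusters, 497 (4.11%) passed 1.5-fold by replicate number, 396 of them higher on the replicate 2 arrays. Of 19460 clusters that name 1 symbol, 53 (0.272%) passed, 18 of them higher. These kinds of cluster also differed in brightness. The median log2 signal was 4.17 over all clusters without a symbol and 6.55 over all that name 1. Whether the shares differ because of the dimmer signal was not tested.

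Pathway lists held few of the genes. Of 17 lists and 10 gene families, the only ones that held any of the 47 genes were NF-kB targets and cytokines, small nucleolar RNAs, histones and zinc finger genes. In the list of NF-kB targets and cytokines, 21 of 23 genes were measured, 14 were above 0 and the median difference was 0.17, against -0.01 over all genes. CCL2 and CXCL8 were the 2 past 1.5-fold, followed by TNF at 0.54, CCL20 at 0.46 and LIF at 0.42. TNF is a central inflammatory cytokine, and its difference was 0.54 both between the p53si-1 arrays and between the NS arrays. CCL20 is a chemokine as well, and some dimmer chemokines differed little or the other way. CXCL1 differed by -0.21 at a mean signal of 4.59 and CXCL10 by -0.04 at 4.45. CXCL6, outside the list and looked up after the values had been seen, differed by -0.40 at 3.94. It was lower on the replicate 2 array in both groups, by -0.44 between the p53si-1 arrays and -0.35 between the NS arrays. CCL7, a neighbour of CCL2, differed by 0.07 at a dim signal of 3.36. The mitosis list had 20 of 23 genes above 0 with a median of 0.13, ribosomal proteins had 49 of 56 below 0 with a median of -0.09, and 8 of 8 metallothioneins were below 0 with a median of -0.10. In each of these 3 lists, 0 genes passed 1.5-fold. Of 20 measured p53 targets, 0 passed and the median was 0.01.

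Promoter sequence is shown for CXCL8 and MMP7, well-measured secreted genes that differed in opposite directions, as an illustration of what their start sites share. Each stretch covers the 150 bases before a RefSeq start site (GRCh38.p14), in capitals where a motif was found on either strand: CXCL8 at chr4:73740419-73740568 on the plus strand and MMP7 at chr11:102530748-102530897 on the minus strand.
CXCL8: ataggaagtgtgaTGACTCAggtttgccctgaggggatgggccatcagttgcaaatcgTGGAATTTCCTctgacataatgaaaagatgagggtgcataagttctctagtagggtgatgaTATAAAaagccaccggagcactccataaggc
MMP7: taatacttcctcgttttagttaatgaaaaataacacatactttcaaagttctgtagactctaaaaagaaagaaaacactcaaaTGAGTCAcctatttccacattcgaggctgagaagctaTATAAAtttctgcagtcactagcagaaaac

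Both windows held an AP-1 motif (TGANTCA, where N is any base), at bases 137 to 131 before the start in CXCL8 and 67 to 61 in MMP7. Both also held a TATA box (TATAAA), at bases 31 to 26 in CXCL8 and 30 to 25 in MMP7. CXCL8 alone of the pair held the NF-kB motif, as overlapping matches on both strands over bases 92 to 82. A promoter entry existed for 29 of the 47 genes, with 46 start sites. The AP-1 motif was in 5 of these 46 windows (10.9%), in CXCL8, MMP7, SERPINB7 and TMEM156, against 4.17% of 35116 windows of all genes. The TATA box was in 5 (10.9%), against 6.71% of all windows, and the NF-kB motif in 5 (10.9%), against 7.71%. Start sites of 1 gene can lie close together, so the windows are not independent. A motif match describes these letters and is no evidence of a bound site. CCL2 had no entry, as had IGSF9B, MSMB, CP, LBP, DEFB1, DUSP5P1, GDPD3, FAM167A-AS1, CFAP144P1, RDH10, EPHX2, SNORD63, SNORD45B, EML5, NCAM1, SPDYE7P and DNER.

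The second question was whether these genes also moved with p53 shRNA. Of the 47, 5 differed by more than 1.5-fold between the p53si-1 and the NS arrays, which is 10.6%, against 0.923% of all genes. Of these, 4 were lower with p53si-1 (0.652% of all genes were) and 1 was higher (0.271% of all genes were). Leaving out any 1 array raised the count of 5 to 12 or 13, as the replicate difference then enters the contrast. The 47 genes were picked for spread between arrays, and their median absolute difference with p53si-1 was 0.19, against 0.09 over all genes. Whether the larger share comes from that choice was not tested, so it is not read as a result about p53. No common direction appeared, with 23 genes above 0, 24 below 0 and a median of 0.00. The sign of the p53si-1 difference was the same in both replicate numbers in 30 of the 47 (63.8%), close to the 62.0% of all genes. In 4 of the 47 (8.51%) the p53si-1 arrays did not overlap the NS arrays, against 42.5% of all genes. Those 4 are CCL2, H2AC25, PRSS23 and ZNF814, the same 4 whose replicate pairs overlapped. A gene cannot be separated both ways, and each of the 47 was separated in 1 of them.

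At an adjusted p under 0.05 from limma over all genes, 0 of the 47 genes were called, against 20 of all genes (0.109%), a number that was 0 or 1 without any 1 array. Of the 47, 4 (8.51%) had an unadjusted p under 0.05, against 12.3% of all genes. This fit counts the replicate difference as error, so a gene chosen for a large replicate difference has a large standard error in it. With the replicate number as a block, 1 of the 47 genes was called, ZNF814, of 12 among all genes (0.0652%). In that fit 20 of the 47 (42.6%) had an unadjusted p under 0.05, against 17.0% of all genes, and 7 had an adjusted p under 0.1, against 396 of all 18417 genes (2.15%). The block rests on 1 residual degree of freedom per gene, and no source says that the numbers pair the arrays.

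ZNF814 rose with p53si-1 in the fit with the block. Its log2 signal was 8.70 and 7.98 on the p53si-1 arrays, against 7.69 and 6.88 on the NS arrays, for replicates 2 and 1 in that order. The difference was 1.06, with a standard error of 0.08 and an adjusted p of 0.049 in the limma fit with the block, and a standard error of 0.32 and an adjusted p of 0.274 without it. The difference was similar in both replicate numbers, 1.01 between the replicate 2 arrays and 1.11 between the replicate 1 arrays. Without 1 array it ranged from 0.65 to 1.47, as the replicate difference then enters the contrast.

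CCL2, H2AC25, LBP and PRSS23 were lower with p53si-1 by more than 1.5-fold and did not pass the test in either fit. In CCL2 the difference was -1.04, with a standard error of 0.41 and an adjusted p of 0.387 in limma without the block and 0.075 with it. It was -0.75 between the replicate 2 arrays and -1.34 between the replicate 1 arrays, so p53si-1 replicate 1 was the lowest of the 4 arrays. H2AC25 differed by -0.83 (adjusted p of 0.363 in limma without the block and 0.055 with it) and LBP by -0.81 (0.411 without the block and 0.055 with it). Both were lower with p53si-1 in both replicate numbers, H2AC25 by -0.89 and -0.77 and LBP by -0.88 and -0.75. PRSS23 gave 4.61 and 4.96 on the p53si-1 arrays, against 5.09 and 5.95 on the NS arrays, for replicates 2 and 1, a difference of -0.73 (adjusted p of 0.365 without the block and 0.102 with it). Leaving out 1 array moved these 4 differences, as the replicate difference that chose the genes then enters the contrast. CCL2 ranged from -1.67 to -0.42, H2AC25 from -1.22 to -0.43, LBP from -1.26 to -0.37 and PRSS23 from -1.16 to -0.31.

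A further 8 genes differed by more than 0.4 without reaching 1.5-fold. MALL was lower with p53si-1 by -0.58, only just short of the threshold, GUCY1B1 by -0.47, CXCL8 by -0.43 and SPDYE7P by -0.41. DNER was higher with p53si-1 by 0.56, ARRDC3 by 0.54, ZNF737 by 0.50 and CFAP144P1 by 0.50. The second cluster of CFAP144P1 ran the other way, at -0.34, and the mean of its clusters gave 0.079. None of the 8 passed the test in either fit, with MALL and DNER closest at an adjusted p of 0.070 in limma with the block. Without 1 array MALL ranged from -1.01 to -0.16, GUCY1B1 from -0.80 to -0.14 and SPDYE7P from -0.78 to -0.05, and DNER, ARRDC3, ZNF737 and CFAP144P1 from 0.10 to 0.96 together. CXCL8 ranged from -0.90 without p53si-1 replicate 2 to 0.036 without p53si-1 replicate 1. In all these ranges the replicate difference enters the contrast. Within the replicate numbers CXCL8 was lower with p53si-1 in both, by -0.29 between the replicate 2 arrays and -0.58 between the replicate 1 arrays. The direction by replicate number did not set the direction with p53si-1. MALL and GUCY1B1 were lower on the replicate 2 arrays and lower with p53si-1, while ARRDC3, ZNF737 and CFAP144P1 were lower on the replicate 2 arrays and higher with p53si-1.

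**Figure D3:**
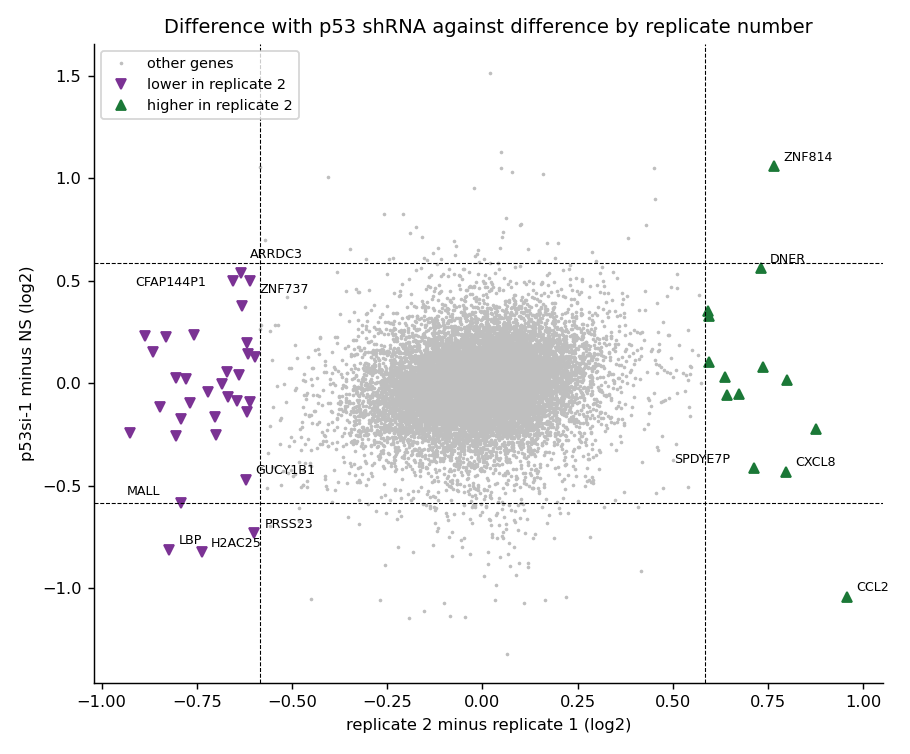
p53si-1 minus NS (log2, vertical axis) against replicate 2 minus replicate 1 (log2, horizontal axis) for all 18417 genes; triangles are the 47 genes, and dashed lines mark 1.5-fold on each axis. Of the 47, ZNF814 lies above the upper horizontal line and CCL2, H2AC25, LBP and PRSS23 below the lower one, with the rest spread on both sides of 0.

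**Figure D4:**
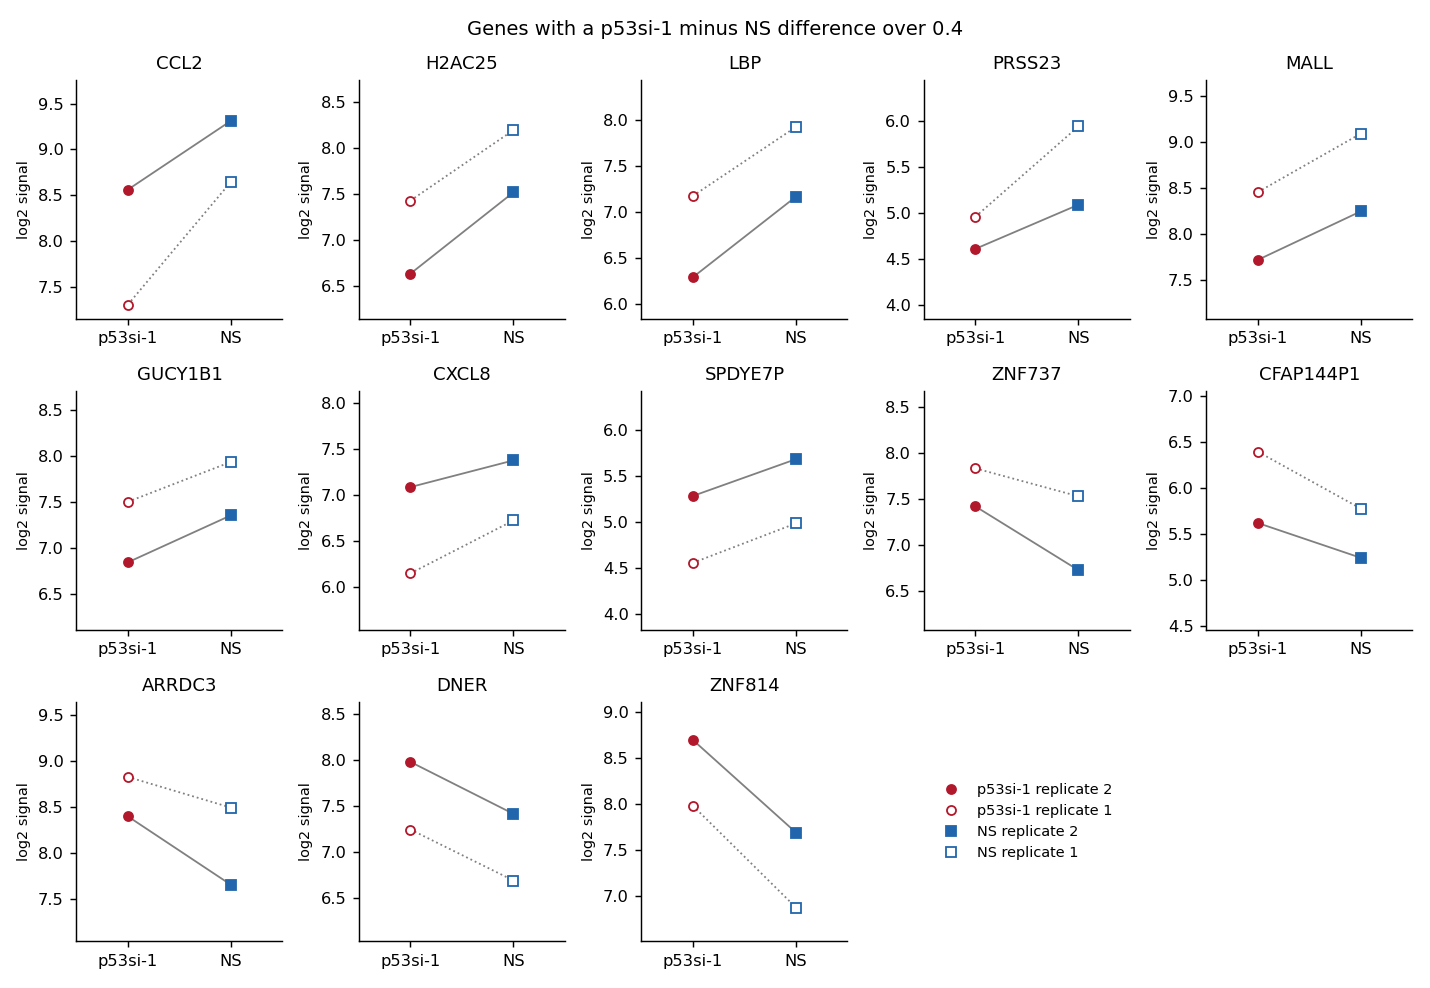
Log2 signal of the 13 genes whose p53si-1 minus NS difference was over 0.4 in size, on each of the 4 arrays, with p53si-1 on the left and NS on the right of each panel; all panels span the same height. Solid lines join the replicate 2 arrays and dotted lines the replicate 1 arrays, and in each of the 13 both lines slope the same way.

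In the other 34 genes the p53si-1 difference was at most 0.38 in size. Several genes with a large replicate difference had nearly none with p53si-1, with 95% intervals that still leave room for a change. The difference was 0.02 in SEMA3C (interval from -0.79 to 0.82 in limma without the block and from -0.19 to 0.23 with it), 0.03 in DEFB1 (from -0.79 to 0.84 without the block and from -0.20 to 0.26 with it) and 0.02 in ANPEP (from -0.76 to 0.81 without the block and from -0.17 to 0.21 with it). With the block these intervals leave out a change of 1.5-fold in either direction, and without it they do not.

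The chemokines CCL2 and CXCL8 differed along both axes, higher on the replicate 2 arrays and lower with p53si-1. The list of NF-kB targets and cytokines, to which they belong, showed the same combination in part. With p53si-1, 19 of its 21 measured genes were below 0, against 9686 of all 18417 genes, and its median was -0.32, against -0.01 over all genes. Of the 19, 16 were below 0 in both replicate numbers, where 62.0% of all genes kept 1 sign, of either direction. Of the 21, 3 were lower by more than 1.5-fold (CCL2, ICAM1 at -1.04 and LIF at -0.92), and 0 were called by limma at an adjusted p under 0.05 with or without the block. At an unadjusted p under 0.05 in limma the list held 8 of its 21 genes without the block, where 12.3% of all genes passed. With the block it held 11, where 17.0% of all genes passed. The list was chosen with earlier results of these data known, and the study had already reported ICAM1 as lower after p53 knockdown. These counts are therefore a description and no test of the list. TNF and CCL20 differed by -0.51 and -0.54 with p53si-1, by nearly the same amount in each replicate number. ICAM1, an adhesion receptor for leukocytes, differed by 0.22 between the replicate numbers, well short of the threshold there.

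**Figure D5:**
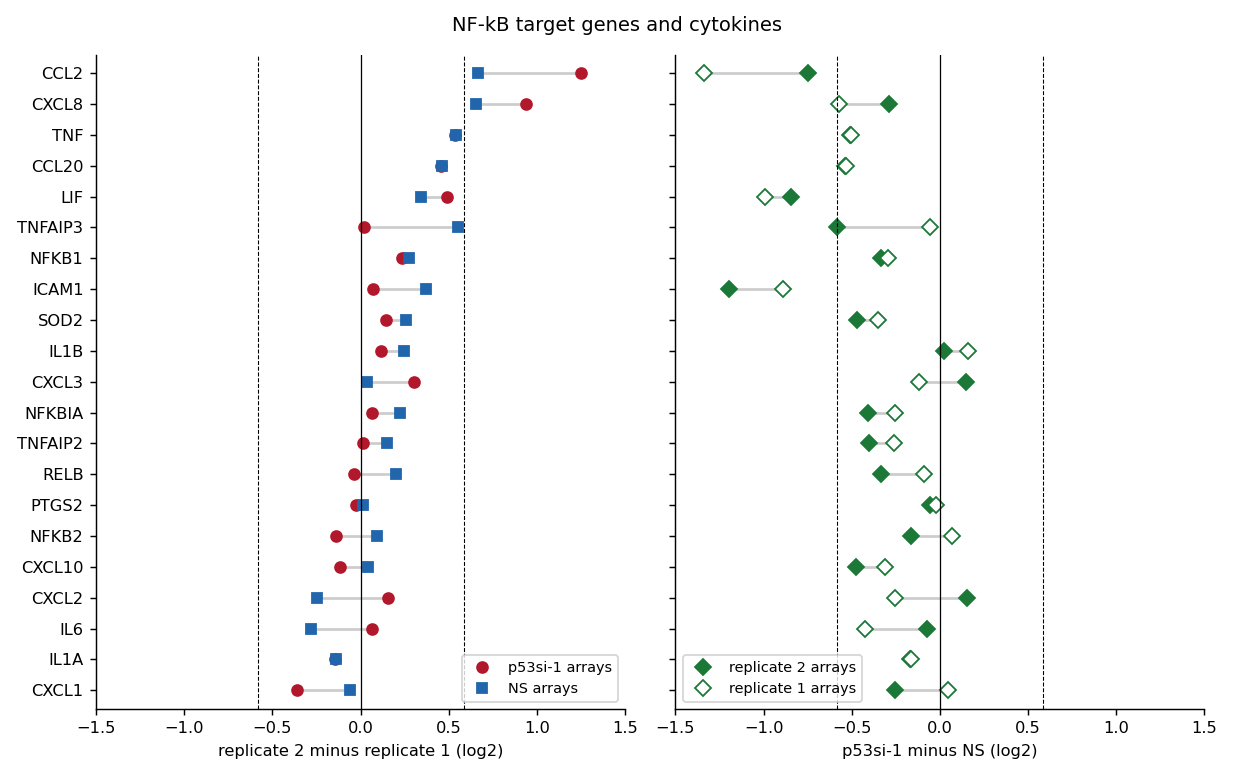
The 21 measured genes of the list of NF-kB targets and cytokines, ordered by replicate difference. The left panel gives replicate 2 minus replicate 1 (log2) between the p53si-1 arrays (circles) and between the NS arrays (squares), the right panel p53si-1 minus NS (log2) between the replicate 2 arrays (filled) and the replicate 1 arrays (open); dashed lines mark 1.5-fold, and CCL2 and CXCL8 are the only genes beyond it in both groups on the left.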

How the data were processed

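The 4 arrays hold 2 p53si-1 and 2 NS samples. The authors deposited log2 signals, 1 for each array and transcript cluster, made with RMA in Affymetrix Expression Console after GCOS, per the submitters' notes. No source states the scale, and it was judged log2 from its range. RMA makes the distributions of the arrays alike and damps differences of dim probes. For settings, scan dates and the annotation version: not given in the sources used here. All 4 value columns matched a sample (0 unmatched columns).

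Of 33297 clusters, 19460 name 1 gene symbol in the platform annotation, and the cluster with the highest mean signal stood for each of 18417 genes. No filter on dim genes was applied. A gene was chosen when the mean of the replicate 2 arrays minus the mean of the replicate 1 arrays exceeded 1.5-fold. The difference of p53si-1 and NS was tested by limma's moderated test (version 3.58.1, R 4.3.3), which had 4.20 prior and 2 residual degrees of freedom. Its p-values were adjusted by Benjamini-Hochberg across the 18417 genes. The methods of the study name no pairing, so the replicate number as a block (1 residual degree of freedom) was an alternative. Values were read with Python 3.11.15 and pandas 2.3.3, and the limma step was checked on simulated data. Promoter windows came from RefSeq (GRCh38.p14), and each gene's symbol was matched there by Entrez number (47 of 47). The NF-kB motif was searched in its usual consensus forms on both strands.

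The members and the lists were chosen with earlier results of these data known. Every member is named, and values on each array are given for the 10 with the largest difference in each direction, those past 1.5-fold or called with p53si-1, and those that share a list or family with another member. The 5 genes just inside and the 5 just outside the threshold are named. Alternatives changed the cluster rule, the dim filter, the normalization, the fold criterion, the prior variance, the block and the arrays used. The number of arrays limits the precision.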

Additional observations from a re-analysis of the deposited data

How the results depend on the processing

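The count of 47 genes differing by replicate number was 43 with the mean of all clusters of a gene, 47 with quantile normalization and 47 with median centring, of which 43, 46 and 47 were among the 47. It was 26 among genes with a mean log2 signal of at least 6, since fewer genes were counted. It was 113 at 1.4-fold, 0 at 2-fold, 105 in the NS arrays alone, 133 in the p53si-1 arrays alone and 26 past 1.5-fold in each group. Over every transcript cluster it was 551, of which 497 lacked a symbol and 1 named several symbols, a split chosen after seeing the data.

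The count of genes called with p53si-1 by limma was 20. It was 192 among genes with a mean log2 signal of at least 6, 33 with quantile normalization, 55 with median centring and 149 with a prior variance that follows the signal, and all 20 were among the called genes in these settings except 1 under the filter. Without 1 array it ranged from 0 to 1. Of the 47 genes, 0 were called in any of these settings.

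The replicate number as a block gave 12 called genes, 9 of them among the 20, and 1 of the 47, ZNF814 (difference 1.06, adjusted p 0.049). No source says what same-numbered arrays share, and across all genes the replicate differences in the 2 groups correlated at 0.24. The count of the 47 past 1.5-fold with p53si-1, 5, was 4 with the filter and ranged from 12 to 13 without 1 array, because the replicate difference then enters the contrast. Of 13 p53si-1 differences recomputed, 1 of 127 alternative values turned its sign, CXCL8 without p53si-1 replicate 1. CXCL8 ranged from -0.90 to 0.036 without 1 array, while it was lower with p53si-1 in both replicate numbers.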
